A study of Mus musculus with 36 samples.

Results

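The genes of the insulin-like growth factor (IGF) system were followed in mammary tumors of a pair of mouse intraductal breast cancer models and in the tumor-free glands of the same strains. The group held 9 of the 21650 genes in the expression table: the ligands Igf1 and Igf2, the receptor Igf1r, and the binding proteins Igfbp2, Igfbp3, Igfbp4, Igfbp5, Igfbp6 and Igfbp7. They were chosen by name as a family, and Igfbp2 was also picked because it was among the genes lowest in 4T1 against Py230 tumors at 6 weeks. For that reason the 6-week values of both tumors against each other are given for all members without a test, and Igfbp2 was not tested in any comparison that holds a 6-week tumor library.

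The data were 36 RNA-seq libraries in 12 groups of 3. The tumors were BALB/c-derived 4T1 cells, a metastatic triple-negative-like line that here carried firefly luciferase, grown in BALB/c females, and Py230 cells, a line made from spontaneous tumors of MMTV-PyMT mice, in which the mammary tumor virus promoter drives the polyoma middle T oncogene, grown in C57BL/6 females. All tumors were started by inoculating cells in Matrigel through the teat canal of the third mammary gland of lactating females just after weaning, and the controls of each strain received Matrigel without cells, so that every gland had lactated. Different numbers of 4T1 and Py230 cells were inoculated. Whole tumors or glands were taken in weeks 1, 3 and 6 post-inoculation (written as w p.i.), and animal ages are not given for the collection times. Each model is 1 cell line in 1 strain, so cell line and mouse strain cannot be told apart in a comparison of the tumors. Bulk RNA was measured, and fewer cells of a type and less RNA per cell cannot be told apart.

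IGF1 and IGF2 are small secreted growth factors that signal through the IGF1 receptor, a tyrosine kinase that acts through IRS adaptors, PI3K and AKT. The high-affinity binding proteins IGFBP1 to IGFBP6 hold the ligands in blood and tissue, where they prolong ligand life, block access to the receptor or release ligand once proteases cut them. IGFBP7 binds IGFs weakly and is found around blood vessels. In the mammary gland, IGF1 made in the stroma under growth hormone supports duct growth, and IGFBP5 is known for its rise when the gland involutes after weaning.

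The binding-protein genes Igfbp2 (chr1:72824503-72852474, plus strand, mm10) and Igfbp5 (chr1:72857932-72874884, minus strand) are neighbours that end toward each other, with 5457 bases between them. Both were lower in 4T1 than in Py230 tumors at 3 w p.i., so the 250 bases before the RefSeq start of each (build GRCm38.p6) are shown, Igfbp2 at chr1:72824230-72824479 on the plus strand and Igfbp5 at chr1:72874866-72875115 on the minus strand. Capitals mark the GC box GGGCGG (searched on both strands, so also as CCGCCC) in Igfbp2 and the A/T-rich run TATTTAA (also as TTAAATA) in Igfbp5. The latter was chosen after the sequence had been read.
Igfbp2: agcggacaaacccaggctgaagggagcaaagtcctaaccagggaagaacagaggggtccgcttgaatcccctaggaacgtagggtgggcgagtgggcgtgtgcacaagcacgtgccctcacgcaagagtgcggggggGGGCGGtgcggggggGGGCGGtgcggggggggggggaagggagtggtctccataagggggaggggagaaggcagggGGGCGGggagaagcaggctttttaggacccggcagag
Igfbp5: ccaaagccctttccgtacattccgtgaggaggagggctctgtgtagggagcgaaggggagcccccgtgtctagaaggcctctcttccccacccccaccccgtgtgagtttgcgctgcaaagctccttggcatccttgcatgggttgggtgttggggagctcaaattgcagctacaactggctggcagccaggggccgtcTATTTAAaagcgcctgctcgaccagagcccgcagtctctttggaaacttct
The Igfbp2 window held 3 GC boxes, which began 113, 98 and 37 bases before the start, and no TATAAA. The Igfbp5 window held no GC box and no TATAAA, and its TATTTAA began 51 bases before the start. Of all 32851 RefSeq promoter windows of this length, 32.7% held a GC box, 12.4% TATAAA or its complement TTTATA, and 4.18% TATTTAA. Among the other members, Igfbp7 had 4 GC boxes and Igf1r 2, Igfbp4 and Igfbp6 each had 1 TATAAA, and Igf1, Igf2 and Igfbp3 had neither in the window nearest to the annotated gene start. G and C made up 67.2% of the Igfbp2 window and 58.8% of the Igfbp5 window.

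The other members lie apart from these neighbours on mm10. Igf1 is at chr10:87858265-87937042 (plus strand), Igf2 at chr7:142650766-142666816 (minus strand) and Igf1r at chr7:67952827-68233668 (plus strand). Igfbp3 is at chr11:7206086-7213923 (minus strand), next to Igfbp1, a binding protein of liver that was not analysed here, and Igfbp4 is at chr11:99041244-99054392 (plus strand). Igfbp6 is at chr15:102144362-102149511 (plus strand) and Igfbp7 at chr5:77349240-77408041 (minus strand). Igf1, Igf2 and Igfbp7 each overlap an antisense gene in GENCODE vM21. The libraries were stranded, but whether strand was used in counting is not stated, so some of their reads may belong to the partner.

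Expression is given as the deposited score, which is centred on 0 and scaled to an SD of 1 within each library, so a difference of 1 is 1 SD of all genes in a library. Scores behave as a log scale: across the 13567 genes whose mean normalized count reached 100, 1 score unit went with 2.78 log2 units of the authors' mean normalized count. This is a relation between genes and not a fold change for any single gene. Read depth cannot be recovered from the scores, so precision rests on the spread between libraries of the same group. The SE of a gene pools this spread over all 12 groups, so it is too small for a group that varied more than the others. Igf1, for example, had an SD of 0.561 in the 3-week Py230 tumors and of 0.128 in the 3-week 4T1 tumors. Several libraries stood apart. Replicate 1 of the Py230 tumors at 3 w p.i. had a mean adipocyte marker score of 0.309, against 1.72 and 1.98 in the other libraries of its group. Replicate 1 of the Py230 tumors at 1 w p.i. differed from its group in Igfbp2 and Igfbp3. Skeletal muscle markers varied widely within groups, from -0.564 to 2.86 in the C57BL/6 glands at 1 w p.i.

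In the Matrigel glands, all 9 genes were measured, and Igfbp5 was the most abundant. Over all 36 libraries, the authors' mean normalized count per kilobase of exon was 12895 for Igfbp5, 4307 for Igfbp7, 1790 for Igfbp6, 1686 for Igfbp4, 1255 for Igfbp2, 763.3 for Igfbp3, 343.2 for Igf1, 66.4 for Igf1r and 4.28 for Igf2. Igf2 therefore rests on few reads (a mean normalized count of 24.5 per library), and its scores lay below the library mean throughout. These levels are means across tumors and glands together, without an error. Between the strains of the tumor-free glands, limma called 0 of 9 members in weeks 1, 3 and 6, where 3.06%, 3.77% and 3.84% of all genes were called. So few genes were called that a count of 0 is near the background. At an unadjusted p under 0.05 there were 1, 0 and 1 members, in both cases Igfbp4. Here and below, shares of all genes are for calls at an adjusted p. The share at an unadjusted p was not computed, so counts at that threshold have no background. It was -0.18 ± 0.066 in BALB/c minus C57BL/6 glands at 1 w p.i. (adjusted p = 0.179), -0.09 ± 0.066 at 3 w p.i. (adjusted p = 0.623) and -0.21 ± 0.066 at 6 w p.i. (adjusted p = 0.075). Without replicate 1 of the 6-week BALB/c glands it was called (-0.29, adjusted p = 0.0118). Leaving out any other library of the 6-week glands gave no call (adjusted p = 0.0794 to 0.331). From 1 to 6 w p.i., 0 of 9 members were called in BALB/c glands (1 at an unadjusted p under 0.05) and 0 of 9 in C57BL/6 glands (0 at an unadjusted p under 0.05), beside 0.0831% and 0.194% of all genes.

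**Figure D1:**
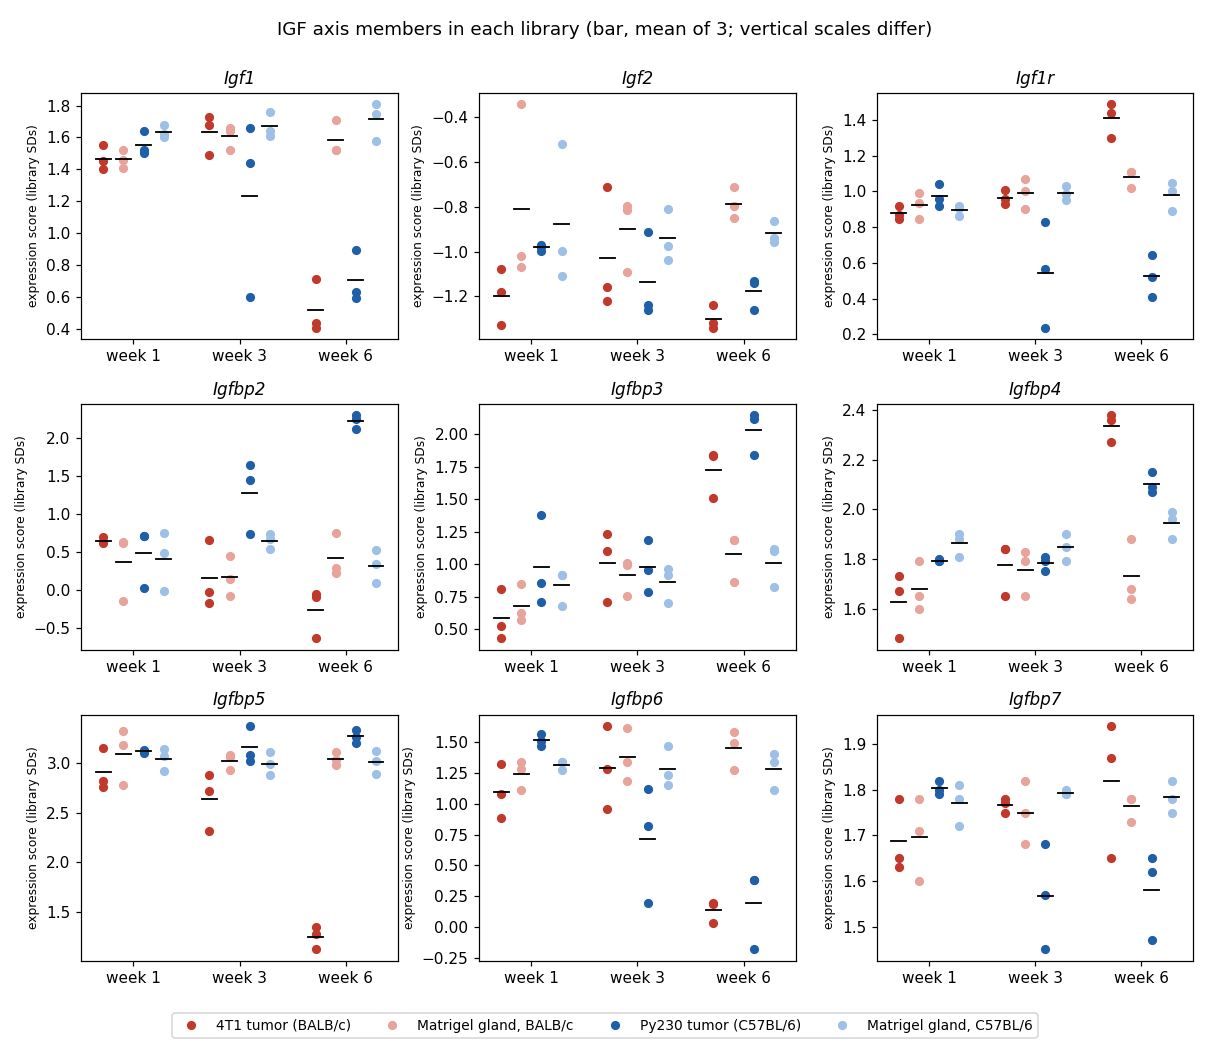
Expression scores (vertical axes, in SDs of all genes of a library, with a different range in each panel) of the 9 members in all 36 libraries, by week post-inoculation (horizontal axes) and by group (colors); each point is a library and each bar the mean of 3. Igf1 in the 6-week tumors (0.406 to 0.896) and Igfbp5 in the 6-week 4T1 tumors (1.12 to 1.35) lay below all glands. Igfbp2, which was chosen by its 6-week values, lay between 2.13 and 2.31 in the 6-week Py230 tumors. How many of all genes leave the gland range was not computed.

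Igf1, the growth factor made by liver and by stroma, was lower in both 6-week tumors than in the glands. It scored 1.4 to 1.73 in the 4T1 tumors of 1 and 3 w p.i., and 1.41 to 1.71 in the BALB/c glands of all weeks. In the 4T1 tumors of 6 w p.i. it scored 0.406, 0.433 and 0.71, below every gland. The difference from the BALB/c glands at 6 w p.i. was -1.07 ± 0.15 (SE, n = 3 against 3; limma, adjusted p = 1.42e-06). In Py230 tumors of 6 w p.i. Igf1 scored 0.592, 0.627 and 0.896 against 1.58 to 1.81 in the C57BL/6 glands, a difference of -1.01 ± 0.15 (adjusted p = 7.68e-06). The 6-week tumors of both models overlapped each other. The 3-week Py230 tumors were split, with 0.596 in replicate 1 and 1.44 and 1.66 in the others, so that the call against the C57BL/6 glands (-0.44 ± 0.15, adjusted p = 0.0415) ended without replicate 1 (-0.12, adjusted p = 0.6) and also without any 1 of the C57BL/6 gland libraries.

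The adipocyte marker list (6 of 6 measured) was lower in the 6-week tumors, as Igf1 was. All 6 markers were called lower in the 6-week tumors of both models than in their glands, with median differences of -2.16 (4T1) and -1.79 (Py230). The mean adipocyte score of a library was -0.4 to -0.0735 in 4T1 and -0.217 to 1 in Py230 tumors at 6 w p.i., against 1.62 to 1.93 in BALB/c and 1.89 to 2.24 in C57BL/6 glands. Replicate 1 of the 3-week Py230 tumors, with the low Igf1, had an adipocyte score of 0.309. Replicate 1 of the 3-week 4T1 tumors had an adipocyte score of 0.591 with an Igf1 score of 1.68, inside the gland range. Fibroblast markers were called lower for 3 of 6 genes in 4T1 and 4 of 6 in Py230 tumors at 6 w p.i. In these comparisons with glands, 21.5% (4T1) and 18.7% (Py230) of all genes were called lower. The part of either cell type in the fall of Igf1 was not tested.

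Igf2, a fetal growth factor that is imprinted and little used in adult tissue, had the lowest level of the members. In the 4T1 tumors of 6 w p.i. it scored -1.34, -1.32 and -1.24, and in their glands -0.85, -0.712 and -0.796, with no overlap. The difference was -0.51 ± 0.15 (adjusted p = 0.00565). In Py230 tumors of 6 w p.i. it scored -1.26, -1.14 and -1.13 against -0.938, -0.864 and -0.956, a difference of -0.26 ± 0.15 that did not pass the test (adjusted p = 0.17). The highest Igf2 scores of all libraries were -0.34 in replicate 2 of the BALB/c glands and -0.52 in replicate 2 of the C57BL/6 glands, both at 1 w p.i. Those libraries also had high skeletal muscle marker scores, 2.76 and 2.86, but their deviations from their group means over all genes were correlated (0.789). Replicate 2 of the 6-week BALB/c glands had a muscle score of 2.85 with an Igf2 score of -0.712. All 6 muscle markers were called lower in 4T1 tumors than in glands at 6 w p.i. (median difference -2.58), and 0 of 6 in Py230 tumors (median -1.33). Of all genes, 21.5% and 18.7% were called lower there. The part of muscle tissue in the Igf2 values was not tested.

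**Figure D2:**
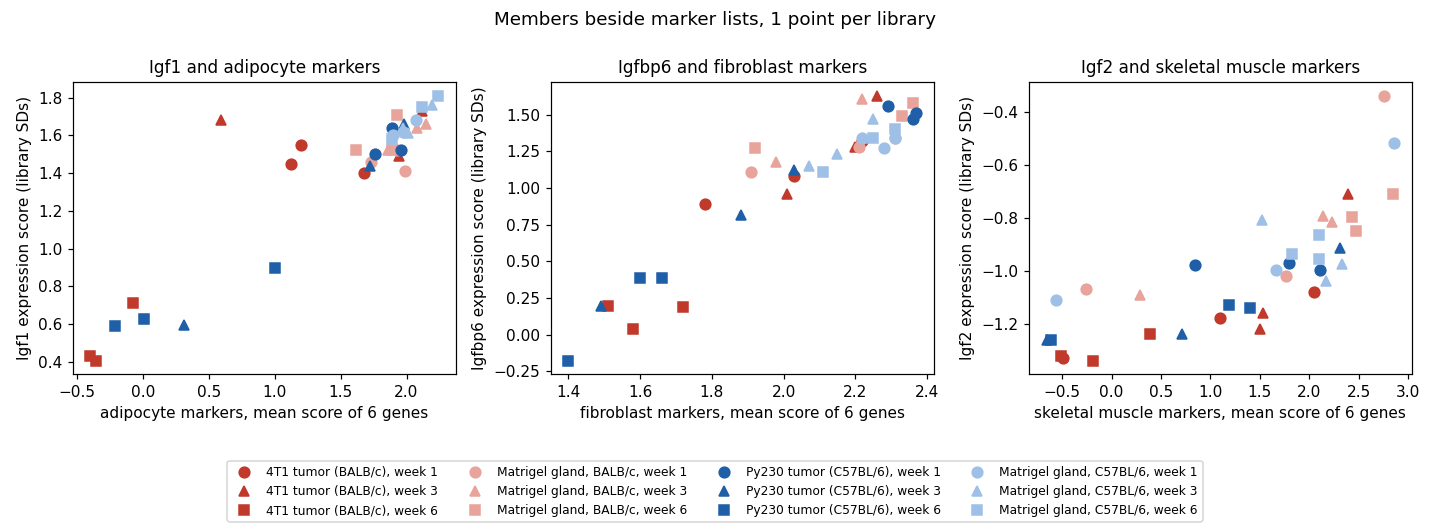
Expression score of Igf1, Igfbp6 and Igf2 (vertical axes, SDs of all genes of a library) against the mean score of 6 adipocyte, 6 fibroblast and 6 skeletal muscle markers (horizontal axes), 1 point per library, with color for the model and shape for the week. The 6-week tumors and replicate 1 of the 3-week Py230 tumors (Igf1 0.596, adipocyte score 0.309) lie at the low end of the first 2 panels. The glands with muscle scores of 2.76 and 2.86 have the highest Igf2 scores, while a 6-week BALB/c gland with 2.85 has an Igf2 score of -0.712.

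The receptor gene Igf1r went opposite ways in the models. In 4T1 tumors it scored 0.845 to 0.92 at 1 w p.i., 0.929 to 1.01 at 3 w p.i., and 1.44, 1.49 and 1.3 at 6 w p.i. The BALB/c glands stayed between 0.848 and 1.11, and the 6-week tumors all lay above them. The difference from the glands at 6 w p.i. was 0.33 ± 0.086 (adjusted p = 0.00196), and Igf1r rose by 0.44 ± 0.086 from 3 to 6 w p.i. (adjusted p = 0.00011). In Py230 tumors it scored 0.919 to 1.04 at 1 w p.i., then 0.238, 0.565 and 0.827 at 3 w p.i. and 0.521, 0.642 and 0.41 at 6 w p.i., while the C57BL/6 glands stayed between 0.865 and 1.05. The Py230 tumors lay below their glands at 3 w p.i. (-0.45 ± 0.086, adjusted p = 0.000818) and at 6 w p.i. (-0.46 ± 0.086, adjusted p = 0.000107).

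Without replicate 1 of the 3-week Py230 tumors, the 3-week difference of Igf1r from the glands was -0.29 (adjusted p = 0.0141). Between the tumors, Igf1r was higher in 4T1 than in Py230 at 3 w p.i. by 0.42 ± 0.086 (adjusted p = 0.000585), and by 0.27 without that library (adjusted p = 0.00925). The excess remained with the strain difference of the glands subtracted (0.42 ± 0.12, adjusted p = 0.0307), the only member called there. This last call was lost without replicate 1 of the 3-week Py230 tumors (0.27, adjusted p = 0.125). It was also lost without replicate 1 of the 4T1 tumors, replicate 2 of the BALB/c glands or any 1 of the C57BL/6 gland libraries of that week, and with only the compared groups in the model (adjusted p = 0.203). At 6 w p.i. the scores of 4T1 (1.3 to 1.49) and Py230 tumors (0.41 to 0.642) did not overlap, with a difference of 0.88, given without a test.

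Igfbp2, a binding protein that is abundant in liver and in several carcinomas, was the member with the widest range. In the glands of both strains it scored between -0.137 and 0.752. In Py230 tumors it scored 0.0332, 0.712 and 0.708 at 1 w p.i., 1.65, 1.45 and 0.737 at 3 w p.i., and 2.31, 2.26 and 2.13 at 6 w p.i. In 4T1 tumors it scored 0.702, 0.629 and 0.625, then 0.667, -0.172 and -0.0275, and then -0.0841, -0.636 and -0.045. The 6-week Py230 tumors were above, and all 3 of the 6-week 4T1 tumors below, every gland of their week.

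At 3 w p.i. Igfbp2 was 1.12 ± 0.25 lower in 4T1 than in Py230 tumors (-1.12, adjusted p = 0.00158), with no overlap of the libraries, and -0.94 without replicate 1 of the Py230 group (adjusted p = 0.0208). With the gland difference between strains subtracted, the difference was -0.65 ± 0.36 and was not called (adjusted p = 0.264). In Py230 tumors Igfbp2 rose by 0.79 ± 0.25 from 1 to 3 w p.i. (adjusted p = 0.0292), a call that ended without replicate 1 of the 1-week group or without replicate 1 or 2 of the 3-week group. Against the C57BL/6 glands the 3-week difference was 0.63 ± 0.25 and did not pass (adjusted p = 0.0821). In 4T1 tumors no tested Igfbp2 difference was called, the 3-week value against glands being -0.02 ± 0.25 (adjusted p = 0.977).

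The 6-week values, which chose Igfbp2, are a description. The mean was -0.26 in 4T1 and 2.24 in Py230 tumors, a difference of -2.49, and the Py230 mean was 1.91 above that of the C57BL/6 glands. Among those 13567 better-measured genes, Igfbp2 was in place 2 from the lowest difference, after Csn3 (-2.53), which encodes the milk protein kappa-casein, and just before Wfdc18 (-2.46), Prlr (-2.39), Capn6 (-2.36) and Fgb (-2.36). Milk markers had mean scores of -0.876 to -0.84 in the 4T1 and 0.0459 to 0.297 in the Py230 tumors at 6 w p.i., against 0.689 to 0.748 and 0.445 to 0.58 in their glands. The milk markers of Py230 tumors did not go 1 way, with 1 of 6 called higher than in glands and 2 lower (median difference 0.09). In 4T1 tumors 4 of 6 were called lower (median -1.96). Of all genes, 28.8% were called higher and 18.7% lower in Py230, and 21.5% lower in 4T1 tumors. Luminal epithelial markers ranged from 1.14 to 1.59 in the 4T1 and from 1.7 to 1.84 in the Py230 tumors. In the 6-week glands they ranged from 1.47 to 1.7 (BALB/c) and from 1.44 to 1.71 (C57BL/6). The part of epithelial cells in the Igfbp2 values was not tested.

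Over the 12 group means, the genes with a pattern most like that of Igfbp2 among 13559 compared were Aldh1l2 (Pearson's r = 0.985), Csnk1a1 (0.963), Paf1 (0.96), 1110038F14Rik (0.957) and Stk26 (0.955). These coefficients describe points that share libraries and normalization and carry no test. They include the 6-week tumors, whose values chose Igfbp2 and which hold its lowest and highest means. A gene that is low in 6-week 4T1 and high in 6-week Py230 tumors is thus favoured. Aldh1l2 and Csnk1a1 moved over far smaller ranges than Igfbp2. From 6-week 4T1 to 6-week Py230 tumors the mean score of Aldh1l2 went from -0.344 to 0.167. That of Csnk1a1 went from 1.73 to 2.09, and that of Stk26 from -0.16 to 1.06.

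Igfbp5, the neighbour of Igfbp2 on chromosome 1, ended in the same direction between the tumors, but the values that moved were those of the other model. It scored 3.02 to 3.38 in all Py230 tumors, against 2.88 to 3.15 in C57BL/6 glands. None of the Py230 differences from the glands was called (0.08 ± 0.13, 0.17 ± 0.13 and 0.26 ± 0.13 in weeks 1, 3 and 6, adjusted p = 0.918, 0.382 and 0.0978). In 4T1 tumors it scored 2.76, 3.16 and 2.82 at 1 w p.i., 2.32, 2.72 and 2.88 at 3 w p.i., and 1.12, 1.28 and 1.35 at 6 w p.i., against 2.78 to 3.33 in all BALB/c glands. The 6-week 4T1 tumors were far below every other library.

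Igfbp5 fell by 1.79 ± 0.13 against the glands at 6 w p.i. (-1.79, adjusted p = 1.92e-11), and the change from 3 to 6 w p.i. was -1.39 ± 0.13 (adjusted p = 2.5e-09). The 3-week 4T1 libraries all lay below the 3-week BALB/c glands (3.06, 2.93 and 3.08), but the difference of -0.38 ± 0.13 did not pass the test (adjusted p = 0.0877). Between the tumors it was called at 3 w p.i. (-0.52 ± 0.13, adjusted p = 0.00294), also without replicate 1 of the Py230 group (-0.42, adjusted p = 0.0383). At 6 w p.i. the difference of -2.02 is given without a test. Myoepithelial markers had mean scores of -0.346 to 0.427 in the 6-week 4T1 tumors, against 1.2 to 1.49 in the BALB/c glands and 1.03 to 1.31 in the 6-week Py230 tumors, and their part in the Igfbp5 values was not tested.

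Igfbp3, which carries most IGF in blood and is also made by tumor and vessel cells, and Igfbp4, an inhibitory binding protein that the protease PAPP-A cuts, were higher in the 6-week tumors of both models than in glands. Igfbp3 scored 1.83, 1.51 and 1.84 in 4T1 tumors against 1.19, 1.19 and 0.866 in BALB/c glands (0.64 ± 0.16, adjusted p = 0.00107). In Py230 tumors it scored 2.15, 2.12 and 1.84 against 1.1, 0.823 and 1.12 in C57BL/6 glands (1.03 ± 0.16, adjusted p = 1.07e-05). From 3 to 6 w p.i. Igfbp3 rose by 0.71 ± 0.16 in 4T1 (adjusted p = 0.000495) and by 1.06 ± 0.16 in Py230 tumors (adjusted p = 0.000122). In both models the groups did not overlap, and the 6-week tumors of one model against the other differed by -0.32.

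Igfbp4 scored 2.36, 2.38 and 2.27 in the 6-week 4T1 tumors against 1.88, 1.68 and 1.64 in their glands, a difference of 0.60 ± 0.066 (adjusted p = 2.62e-08). In Py230 tumors it scored 2.09, 2.15 and 2.07 against 1.88, 1.96 and 1.99, a difference of 0.16 ± 0.066 that was just called (adjusted p = 0.0449). The Py230 call was lost under 7 of 12 alternatives, in which the adjusted p reached 0.236. Igfbp4 also rose from 3 to 6 w p.i. in 4T1 (0.56 ± 0.066, adjusted p = 1.26e-07) and in Py230 tumors (0.32 ± 0.066, adjusted p = 0.00319). The difference between 6-week 4T1 and Py230 tumors was 0.23.

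Igfbp6, which prefers IGF2, was lower in both 6-week tumors than in glands. In 4T1 tumors it scored 0.0353, 0.193 and 0.19 against 1.58, 1.49 and 1.27 in BALB/c glands (-1.31 ± 0.18, adjusted p = 1.07e-06). In Py230 tumors it scored -0.179, 0.385 and 0.386 against 1.34, 1.11 and 1.4 in C57BL/6 glands (-1.09 ± 0.18, adjusted p = 2.82e-05). The Py230 tumors were already lower at 3 w p.i., with 0.196, 0.818 and 1.12 against 1.15, 1.47 and 1.23 (-0.57 ± 0.18, adjusted p = 0.0267). This call ended without replicate 1 of the Py230 group (-0.32, adjusted p = 0.363) and without replicate 2 or 3 of the glands. The 3-week 4T1 tumors scored 0.961, 1.63 and 1.28, on both sides of the 1.34, 1.18 and 1.61 of their glands (-0.08 ± 0.18, adjusted p = 0.839).

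Igfbp6 and the fibroblast markers (6 of 6 measured) both scored lower in the 6-week tumors than in glands, but so did other lists. Adipocyte, myoepithelial and skeletal muscle markers were each called lower for 6 of 6 in 4T1 tumors, beside 21.5% of all genes. In Py230 tumors those counts were 6, 1 and 0, beside 18.7%. Over the 12 group means Igfbp6 also went with Igf1 (Pearson's r = 0.961, no test). The mean fibroblast score was 1.51 to 1.72 in 4T1 and 1.4 to 1.66 in Py230 tumors at 6 w p.i., and 1.92 to 2.36 and 2.11 to 2.31 in their glands. In Py230 tumors all 6 fibroblast markers were called lower at 3 than at 1 w p.i. (median difference -0.57), beside 7.17% of all genes. Over the same weeks Igfbp6 fell by 0.80 ± 0.18 (limma, adjusted p = 0.00328). Without replicate 1 of the 3-week group the Igfbp6 change was -0.54 (limma, adjusted p = 0.07). That library had a mean fibroblast score of 1.49, against 1.88 and 2.03 in the others, and the marker calls were not checked without it. The part of fibroblasts in these values was not tested.

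Igfbp7, the low-affinity member found around vessels, moved over a narrow range. It scored 1.94, 1.65 and 1.87 in 6-week 4T1 tumors and 1.78, 1.73 and 1.78 in their glands, which overlapped (0.05 ± 0.062, adjusted p = 0.46). In Py230 tumors it scored 1.45, 1.57 and 1.68 at 3 w p.i. against 1.8, 1.79 and 1.79 in glands (-0.22 ± 0.062, adjusted p = 0.0124). At 6 w p.i. it scored 1.62, 1.47 and 1.65 against 1.78, 1.75 and 1.82 (-0.20 ± 0.062, adjusted p = 0.0104). The 3-week call ended without replicate 1 of the Py230 group (adjusted p = 0.17), and the 6-week call without replicate 2 (adjusted p = 0.0901). Endothelial markers were called lower than in glands for 2 of 6 genes at 3 w p.i. and 4 of 6 at 6 w p.i. in Py230 tumors, and for 0 and 3 of 6 in 4T1 tumors. Of all genes, 6.9% and 18.7% were called lower in those Py230 comparisons. In 4T1 tumors 3.25% were called in either direction at 3 w p.i., and 21.5% were called lower at 6 w p.i. The part of endothelial cells in the Igfbp7 values was not tested.

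Which members set the tumors apart from each other was asked at each week. At 1 w p.i. limma called 0 of 9 members between 4T1 and Py230 tumors, where 19.4% of all genes were called. An unadjusted p under 0.05 was found for 3 (Igfbp3, Igfbp4 and Igfbp6, all with lower values in 4T1), a count without a share of all genes to set it against. At 3 w p.i. it called 6 of 9, beside 30.3% of all genes (11.9% higher and 18.5% lower in 4T1). Higher in 4T1 were Igf1 (0.40 ± 0.15, adjusted p = 0.046), Igf1r, Igfbp6 (0.58 ± 0.18, adjusted p = 0.0159) and Igfbp7 (0.20 ± 0.062, adjusted p = 0.0151), and lower were Igfbp2 and Igfbp5. The median difference was 0.10 over the members and -0.01 over all genes. Without replicate 1 of the Py230 group, 3 calls held (Igf1r, Igfbp2 and Igfbp5), while the differences of Igf1, Igfbp6 and Igfbp7 were 0.08 (adjusted p = 0.65), 0.32 (adjusted p = 0.207) and 0.14 (adjusted p = 0.142). With only the 6 libraries compared in the model, 0 held (lowest adjusted p = 0.117, for Igfbp2), and the share of all genes called in that fit was not recorded. The call of Igf1 also ended without replicate 1 or 3 of the 4T1 group and with cyclic loess, and that of Igfbp6 without replicate 2 of the 4T1 group. All 6 macrophage markers were called higher in 4T1 tumors in the same comparison (median 0.54), beside 11.9% of all genes. Of 6 markers each, 3 luminal were called lower, 2 endothelial and 1 fibroblast higher, and 2 milk markers higher and 2 lower. The part of these cells in the member values was not tested, and no marker call was checked without replicate 1 of the Py230 group. At 6 w p.i., without a test, the differences of the remaining members were -0.19 for Igf1, -0.12 for Igf2, -0.06 for Igfbp6 and 0.24 for Igfbp7.

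**Figure D3:**
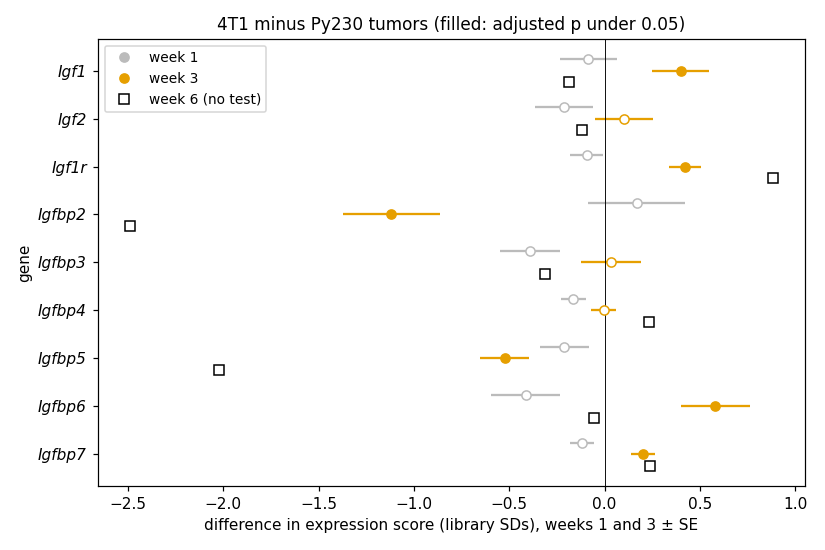
Difference in expression score between 4T1 and Py230 tumors (horizontal axis, SDs of all genes of a library) for each member (vertical axis) in weeks 1, 3 and 6; bars are the SE from limma at weeks 1 and 3, filled points were called, and the squares of week 6 carry no error or test. Igfbp2 goes from 0.17 through -1.12 to -2.49 and Igfbp5 from -0.21 through -0.52 to -2.02, while Igf1r goes from -0.09 through 0.42 to 0.88.

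The change of the difference between 4T1 and Py230 tumors from 1 to 3 w p.i. was called for 4 of 9 members, beside 15.3% of all genes (4.89% upward, 10.4% downward). It was positive for Igf1r (0.52 ± 0.12, adjusted p = 0.00692), Igfbp6 (1.00 ± 0.26, adjusted p = 0.0114) and Igfbp7 (0.32 ± 0.088, adjusted p = 0.016), and negative for Igfbp2 (-1.29 ± 0.36, adjusted p = 0.0174). Without replicate 1 of the 3-week Py230 tumors, 1 call was left, and with only the compared groups in the model there were 0. With the gland strain difference subtracted, 0 of 9 members were called between the tumors at 1 w p.i. (0.305% of all genes; 0 at an unadjusted p under 0.05) and 1 of 9, higher, at 3 w p.i. (9.15% of all genes, 2.64% higher and 6.51% lower; 4 at an unadjusted p under 0.05).

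The members called between a tumor and its own gland were counted at each week. The share of all genes called also changed with the week, and no test compared the weeks. At 1 w p.i. 0 of 9 members were called in 4T1 tumors, beside 16.6% of all genes, and 0 of 9 in Py230 tumors, where only 2 genes of the whole table (0.00924%) were called. At 3 w p.i. 0 of 9 were called in 4T1 tumors, beside 3.25% of all genes, and 4 of 9, all lower, in Py230 tumors, beside 19.7% (12.8% higher, 6.9% lower). At an unadjusted p under 0.05 the counts of 4T1 tumors were 1 and 1 (Igf2 at 1 w p.i. and Igfbp5 at 3 w p.i.), and that of Py230 tumors at 1 w p.i. was 0. The 4 genes in Py230 tumors were Igf1, Igf1r, Igfbp6 and Igfbp7, of which only Igf1r held without replicate 1 of the Py230 group, and none held with only the 6 compared libraries in the model (lowest adjusted p = 0.121). Without replicate 2 or replicate 3 of the C57BL/6 glands, 2 were called. The comparisons at 3 w p.i. share the Py230 libraries.

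At 6 w p.i. 7 of 8 tested members were called in 4T1 tumors, beside 60.1% of all genes (38.6% higher, 21.5% lower). Igf1r, Igfbp3 and Igfbp4 were higher and Igf1, Igf2, Igfbp5 and Igfbp6 lower, and Igfbp7 was not called. In Py230 tumors 6 of 8 were called, beside 47.6% (28.8% higher, 18.7% lower). Igfbp3 and Igfbp4 were higher and Igf1, Igf1r, Igfbp6 and Igfbp7 lower. With cyclic loess scaling the share of higher genes among all genes called was 50.6% instead of 64.2% in 4T1 tumors, and the 7 member calls kept their directions. Igfbp2 was 0.68 lower (-0.68) in 4T1 and 1.91 higher in Py230 tumors than in glands, without a test.

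**Figure D4:**
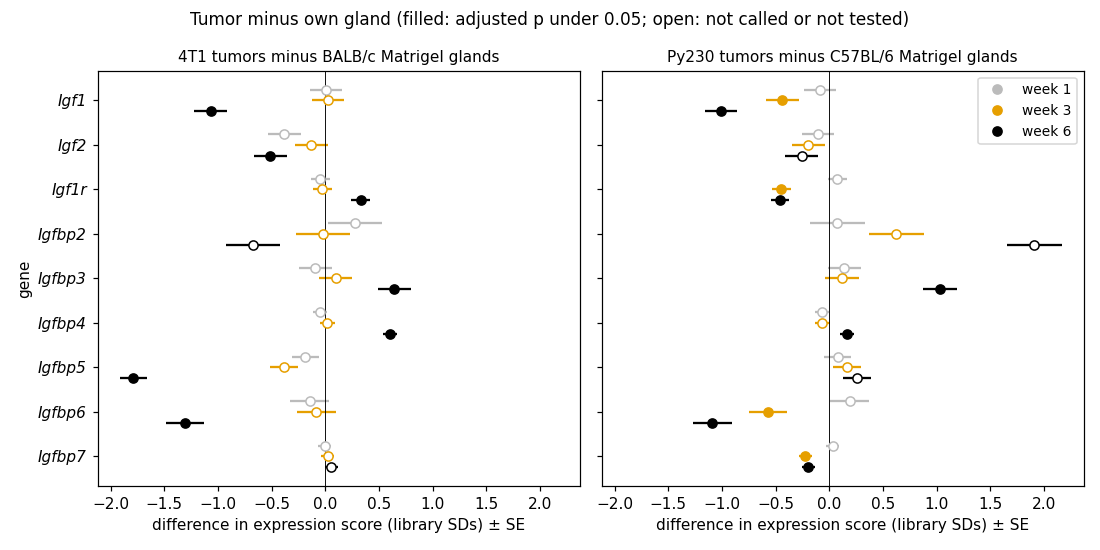
Difference in expression score between tumors and the Matrigel glands of the same strain and week (horizontal axes, SDs of all genes of a library, ± SE from limma) for each member (vertical axis), with 4T1 on the left and Py230 on the right; filled points were called, open points were not called or, for Igfbp2 at week 6, not tested. Igf1 and Igfbp6 lie far to the left at week 6 in both panels, Igfbp5 only in the 4T1 panel (-1.79), and Igf1r lies right of 0 in 4T1 (0.33) and left of 0 in Py230 tumors (-0.46).

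Within the models over time, 0 of 9 members were called from 1 to 3 w p.i. in 4T1 tumors (0.628% of all genes; 3 at an unadjusted p under 0.05) and 6 of 8 from 3 to 6 w p.i. (53% of all genes, 34.2% higher and 18.8% lower at 6 w p.i.). The latter were Igf1r, Igfbp3 and Igfbp4, which rose, and Igf1 (-1.11 ± 0.15, adjusted p = 1.05e-06), Igfbp5 and Igfbp6 (-1.15 ± 0.18, adjusted p = 8.25e-06), which fell. With cyclic loess the higher share of all called genes was 48.6% instead of 64.6%, and these 6 calls kept their directions. In Py230 tumors 4 of 9 were called from 1 to 3 w p.i. (20% of all genes, 12.8% higher and 7.17% lower): Igfbp2 rose, and Igf1r (-0.43 ± 0.086, adjusted p = 0.00121), Igfbp6 and Igfbp7 (-0.24 ± 0.062, adjusted p = 0.00913) fell. Without replicate 1 of the 3-week group 1 of these was left (Igf1r, -0.28, adjusted p = 0.0221), and with only the compared libraries in the model there were 0. From 3 to 6 w p.i. 3 of 8 were called in Py230 tumors (6.03% of all genes, 3.96% higher and 2.06% lower): Igfbp3 and Igfbp4 rose, and Igf1 fell by 0.53 ± 0.15 (-0.53, adjusted p = 0.0349). That last call was lost without replicate 2 or 3 of the 3-week group, or without replicate 1 or 2 of the 6-week group, and with only the compared groups in the model (adjusted p = 0.385). When replicate 1 of the 3-week group was left out, Igf1 differed by -0.85 (adjusted p = 4.1e-06) and Igfbp6 was called as well (-0.77, adjusted p = 0.00336; -0.51 ± 0.18 and adjusted p = 0.0915 with it).

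Around the 9 members, 29 further genes of the IGF, insulin, growth hormone and prolactin pathways were measured of 31 listed. At 1 w p.i. 7 of 29 were called between 4T1 and Py230 tumors, 1 higher and 6 lower, beside 19.4% of all genes. Those with the smallest p were Adam12, a metalloprotease that cuts binding proteins (-0.38 ± 0.088, adjusted p = 0.00435), and Prlr, the prolactin receptor (-0.52 ± 0.15, adjusted p = 0.0144). At 3 w p.i. 10 of 29 were called, 5 in each direction, beside 30.3% of all genes. They were led by Igf2bp2, an RNA-binding protein that binds Igf2 transcripts (0.42 ± 0.079, adjusted p = 0.000248), and Adam12 (0.41 ± 0.088, adjusted p = 0.00105). Adam12 was thus lower at 1 w p.i. and higher at 3 w p.i., and the change between the weeks was called (0.79 ± 0.13, adjusted p = 0.000347). The alternative fits covered only the members. No pathway gene was checked without replicate 1 of the 3-week Py230 tumors or with only the compared groups in the model.

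Against the glands, 5 of 29 pathway genes were called in 4T1 tumors at 1 w p.i., beside 16.6% of all genes, among them Socs2, an inhibitor of growth hormone signaling (0.34 ± 0.075, adjusted p = 0.0068), and the insulin receptor Insr (-0.26 ± 0.067, adjusted p = 0.0124). By 3 w p.i. only Pik3r1, the regulatory PI3K subunit, was called (-0.35 ± 0.08, adjusted p = 0.0284), beside 3.25% of all genes. At 6 w p.i. 20 were called, 9 higher and 11 lower, beside 60.1% of all genes (38.6% higher, 21.5% lower). The count includes Prlr, which had a mean score of -0.44 in tumors and 2.02 in glands (-2.46). Prlr was also among the genes lowest in 4T1 against Py230 tumors at 6 w p.i., so its value is a description and no p-value is given. Igf2bp2 had a mean score of 1.11 in tumors and -0.16 in glands (1.27 ± 0.079, limma, adjusted p = 1.68e-12).

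In Py230 tumors limma called 0 of 29 against glands at 1 w p.i. (3 at an unadjusted p under 0.05), beside 0.00924% of all genes. It called 7 at 3 w p.i., all lower, beside 19.7% of all genes, and 15 at 6 w p.i., 3 higher and 12 lower, beside 47.6%. Pappa, the protease that cuts IGFBP4 and thereby frees IGF (-0.68 ± 0.16, adjusted p = 0.00423), and Adam12 (-0.36 ± 0.088, adjusted p = 0.00586) led at 3 w p.i. The transcription factor Stat5b (-0.33 ± 0.041, adjusted p = 6.61e-07) and the receptor adaptor Irs1 (-0.68 ± 0.1, adjusted p = 7.59e-06) led at 6 w p.i. Both were also called lower in the 6-week 4T1 tumors, Stat5b with a difference of -0.27 ± 0.041 (adjusted p = 3.72e-06) and Irs1 with -0.38 ± 0.1 (adjusted p = 0.0025).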

How the data were processed

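RNA of 36 tumors and glands (12 groups, 3 replicates each, grouped by the sample titles) was sequenced from stranded libraries. Per the methods and the labels, the authors mapped reads to mm10 with STAR, counted them with summariseOverlaps (GenomicAlignments) and normalized with DESeq2. Versions and the annotation are not given in the sources used here. The deposited expression values are scores, standardized by the authors to a mean of 0 and an SD of 1 per library over 21650 genes, a step not described. Mean normalized counts come from the authors' deposited comparison tables, whose log2 fold changes and p-values were not used. Depth is unknown, 0 columns were left unmapped, and no copy of a library was found (highest correlation 0.993).

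Scores were analysed with limma 3.58.1 (R 4.3.3): 1 mean per group over all 36 libraries, empirical Bayes with trend and robust options, Benjamini-Hochberg adjustment over all genes, called under 0.05. The script was tested on simulated data. The methods' count model could not be applied to scores. With 3 against 3, an exact permutation test cannot go below 0.1, so none was used. Whether replicates came from separate animals is not in the labels, so p-values measure the spread between these samples. Members and gene lists were chosen with earlier results of these data known. By rule, every member was described in every comparison, with the 2 pathway genes of smallest p in each comparison of tumors (1 and 3 w p.i.) or with glands, and 5 genes most like Igfbp2. Irs1 and Stat5b in 4T1 tumors, and the change of Adam12, were added after their values were seen. Of 54 same-numbered pairs of libraries 20 had correlated deviations above 0.1, all 3 pairs in 1 of 18 comparisons (the glands of both strains at 1 w p.i., different animals), so numbers were not used as pairs. Positions and exon lengths are from GENCODE vM21, promoters from RefSeq, matched for all 9 members by symbol, and 5384 genes lacking a symbol were named from the reference. Figures were drawn with matplotlib. Alternatives were cyclic loess, a robust rescaling of libraries, a mean count of at least 10, limma without trend and robust options, the compared groups alone, a replicate block and leaving out each library.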

Additional observations from a re-analysis of the deposited data

Results flagged for a closer look

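In 5 cases the difference between 4T1 and Py230 tumors itself differed between conditions by a test of that change. The difference of Igf1r between tumors exceeded that between the glands of the strains at 3 w p.i. by 0.418 (limma, adjusted p = 0.0307). Between 1 and 3 w p.i. the difference of 4T1 minus Py230 tumors moved by 0.515 for Igf1r (adjusted p = 0.00692), by -1.29 for Igfbp2 (adjusted p = 0.0174), by 0.996 for Igfbp6 (adjusted p = 0.0114) and by 0.319 for Igfbp7 (adjusted p = 0.016). The 4T1 means of these 4 genes from 1 to 3 w p.i. went from 0.878 to 0.964 (Igf1r), 0.652 to 0.156 (Igfbp2), 1.1 to 1.29 (Igfbp6) and 1.69 to 1.77 (Igfbp7), and the Py230 means from 0.972 to 0.543, 0.485 to 1.28, 1.51 to 0.711 and 1.8 to 1.57. Of the 4 changes, that of Igf1r was lost only when the model held just the compared groups, and the 3 others also without replicate 1 of the 3-week Py230 tumors. That of Igfbp2 was lost, too, without replicate 2 of the 3-week 4T1 or replicate 1 of the 1-week Py230 tumors, and that of Igfbp7 without replicate 1 of the 1-week 4T1 tumors. The gland-subtracted call of Igf1r held under 11 of 18 alternatives. Groups of 3 libraries are too small for a test of single outlying libraries.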

How the results depend on the processing

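Of 2592 values of single genes under the alternatives, 64 lost the call, 21 gained it, 0 calls reversed and 2 values without a test moved. The other 2505 stayed on their side of the threshold or, without a test, moved by less than the SD within their groups. In 116 cases a value that was called in neither fit changed sign, which was not counted as a reversal. With only the libraries of the compared groups in the model, the number of members called fell to 0 for 4T1 against Py230 tumors at 3 w p.i. (6 in the reported fit), Py230 tumors against glands at 3 w p.i. (4), Py230 tumors from 1 to 3 w p.i. (4), the gland-subtracted difference at 3 w p.i. (1) and the change from 1 to 3 w p.i. (4). In 4T1 tumors the 7 member calls against glands at 6 w p.i. held in this fit, as did the 6 calls from 3 to 6 w p.i. This fit takes the spread from fewer libraries, and why some calls were lost was not tested. The share of all genes called in it was not recorded. Cyclic loess gave 1 call for 4T1 tumors against glands at 3 w p.i. (0 reported) and 2 for the gland-subtracted difference at 3 w p.i. (1 reported). The replicate block also gave 2 for the latter and changed no other count of member calls by over 1.5 times, although it ended the call of Igfbp4 in 6-week Py230 tumors. The share of higher genes among all called went from 64.1% to 53.4% with cyclic loess for Py230 tumors from 1 to 3 w p.i., and from 28.8% to 39.5% for the gland-subtracted difference at 3 w p.i.

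Leaving out 1 library at a time, where a group of 2 stays, the members called ranged from 0 to 1 for 4T1 against Py230 tumors at 1 w p.i. and from 3 to 6 at 3 w p.i. For 4T1 tumors against glands the ranges were 0 to 1, 0 to 1 and 7 to 8 in weeks 1, 3 and 6, and for Py230 tumors 0 to 0, 1 to 5 and 4 to 6. Over time they were 0 to 1 and 6 to 6 in 4T1 tumors and 1 to 5 and 2 to 4 in Py230 tumors. For the gland-subtracted difference they were 0 to 0 and 0 to 4, for the change from 1 to 3 w p.i. 1 to 5, and for the glands of both strains 0 to 0, 0 to 0 and 0 to 1. The cause of these changes was not tested, and the share of all genes called with a library left out was not recorded. Unknown depth and the low level of Igf2 limit what can be said of small differences.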
